A study of Mus musculus with 6 samples.

Results

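Transcripts of the 4 adult red-cell globin genes of the mouse, of the erythroid heme synthesis gene Alas2 and of the myoglobin gene Mb were measured in the tibialis anterior (TA) muscle. These 6 genes were taken by their symbols from a count table of 13226 genes, and all 6 were present. The libraries were made from male C57BL/6 mice aged 8 weeks, whose TA muscles received a local injection of AAV6:Yap-shRNA in one leg and of a control vector in the other, and were excised 7 days later. AAV6 is an adeno-associated viral vector of serotype 6, and the shRNA is a short hairpin RNA against the transcript of Yap1, the transcriptional coactivator at the end of the Hippo pathway. The study's methods place the Yap hairpin in an AAV6 plasmid that also carries a CMV promoter and eGFP. Sample titles describe the control as an empty vector while the vector field gives AAV6:LacZ-shRNA, so these muscles are called control here. There were 3 muscles in each group, and per the labels both groups came from the same 3 animals, although the sample numbers are not stated to name animals.

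Adult hemoglobin joins alpha chains, encoded by Hba-a1 and Hba-a2, with beta chains, encoded by Hbb-bs and Hbb-bt in C57BL/6 mice, and carries oxygen inside red cells. Alas2 encodes the erythroid form of 5-aminolevulinate synthase, which catalyses the first step of heme synthesis in developing red cells, whereas the form encoded by Alas1 serves other tissues. Myoglobin, the product of Mb, binds oxygen with a single heme inside muscle fibres. A whole muscle holds both fibres and the blood of its vessels, and reticulocytes, the youngest circulating red cells, still contain globin mRNA. The comparison of red-cell globins with Mb in each muscle therefore sets a transcript of blood cells beside a transcript of the fibres.

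On the mouse build GRCm38, Hba-a1 (ENSMUSG00000069919) lies at chr11:32283511-32284465 and Hba-a2 (ENSMUSG00000069917) at chr11:32296489-32297298, both on the plus strand. Hbb-bs (ENSMUSG00000052305) lies at chr7:103826534-103828096 and Hbb-bt (ENSMUSG00000073940) at chr7:103812524-103813996, both on the minus strand. Each globin gene has 3 exons in its principal transcript. The coding sequences of Hba-a1 and Hba-a2 are 426 nucleotides long, differ at 1 position (C381T, from Hba-a1 to Hba-a2, counted from 1 at the first coding base) and encode the same protein of 142 residues. Those of Hbb-bs and Hbb-bt are 441 nucleotides long, also differ at 1 position (C417T, from Hbb-bs to Hbb-bt, counted in the same way) and encode the same protein of 147 residues. Of the 50-base windows in Hba-a1 transcripts 67.5% occur in Hba-a2 and 86.9% of those of Hba-a2 occur in Hba-a1, against 65.8% of Hbb-bs windows in Hbb-bt and 58.3% in the other direction. Many reads could thus not be placed on one gene of a pair, and the split of counts within the alpha pair and within the beta pair is uncertain. Hba-a1 and Hbb-bs share no such window, and other pairings of an alpha with a beta gene were not compared. Alas2 (ENSMUSG00000025270) is on the plus strand at chrX:150547375-150570638 with 11 exons, and Mb (ENSMUSG00000018893) is on the minus strand at chr15:77015487-77050670. Because no strand setting is given for the counting, reads of the 372 exon bases of Alas2 that overlap Apex2 or Mir3620, and of the 476 exon bases of Mb that overlap Apol6 or Gm49540, could belong to either gene.

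The 250 bases upstream of the transcription start are shown for 5 of the genes, with matches to short motifs marked. Any part of these motifs in the levels of the genes was not tested. The sequences are from RefSeq on GRCm38.p6, are written 5′ to 3′ on the strand of the gene and end at the base before the RefSeq start. Capitals mark GATAA (the core of the site of GATA factors), CACCC (of Klf factors), CCAAT and TATAA, searched on both strands. The windows are chr11:32296242-32296491 (plus strand) for Hba-a2, chr7:103827929-103828178 (minus strand) for Hbb-bs, chr7:103813924-103814173 (minus strand) for Hbb-bt, chrX:150547167-150547416 (plus strand) for Alas2 and chr15:77022728-77022977 (minus strand) for Mb, at the one of its 3 RefSeq starts that lies nearest the coding sequence.
Hba-a2: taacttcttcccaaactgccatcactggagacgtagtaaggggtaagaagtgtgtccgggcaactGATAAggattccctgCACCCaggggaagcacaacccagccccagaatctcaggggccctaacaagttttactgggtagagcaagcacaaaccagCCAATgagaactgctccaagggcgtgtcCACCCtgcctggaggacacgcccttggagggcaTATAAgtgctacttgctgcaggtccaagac
Hbb-bs: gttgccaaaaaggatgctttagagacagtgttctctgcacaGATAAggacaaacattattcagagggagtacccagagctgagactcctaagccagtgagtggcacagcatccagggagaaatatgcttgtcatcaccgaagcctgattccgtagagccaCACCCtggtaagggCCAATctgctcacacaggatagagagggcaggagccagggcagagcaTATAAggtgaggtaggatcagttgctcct
Hbb-bt: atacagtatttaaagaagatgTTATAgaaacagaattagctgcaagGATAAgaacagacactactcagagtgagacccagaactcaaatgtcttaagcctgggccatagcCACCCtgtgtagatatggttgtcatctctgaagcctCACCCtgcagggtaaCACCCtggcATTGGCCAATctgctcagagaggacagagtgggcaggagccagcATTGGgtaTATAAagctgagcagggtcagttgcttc
Alas2: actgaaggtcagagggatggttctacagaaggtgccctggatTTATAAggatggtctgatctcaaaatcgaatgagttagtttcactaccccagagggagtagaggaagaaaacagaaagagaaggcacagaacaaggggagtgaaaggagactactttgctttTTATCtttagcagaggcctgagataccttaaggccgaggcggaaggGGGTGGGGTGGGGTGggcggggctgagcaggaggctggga
Mb: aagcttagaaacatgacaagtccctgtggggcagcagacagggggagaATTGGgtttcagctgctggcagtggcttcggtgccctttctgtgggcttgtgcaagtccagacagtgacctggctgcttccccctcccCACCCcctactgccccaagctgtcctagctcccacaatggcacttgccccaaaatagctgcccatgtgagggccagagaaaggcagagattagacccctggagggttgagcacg

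All 4 motifs were found in the windows of Hba-a1, Hba-a2, Hbb-bs and Hbb-bt, a combination held by 0.969% of 32817 RefSeq upstream windows of the same length. Alas2 held 3 of them and lacked CCAAT, and Mb held CACCC and CCAAT. Singly, GATAA was present in 22.6% of all windows, CACCC in 52.0%, CCAAT in 33.8% and TATAA in 22.8%. The TATAA nearest the start began 27 bases before it in Hba-a1, 30 in Hba-a2, 29 in Hbb-bs and 28 in Hbb-bt. In Alas2 the TTATAA far upstream was read on both strands, and in Hbb-bt a reverse and a forward CCAAT adjoin each other. The windows of Hba-a1 and Hba-a2 shared an identical run of 247 bases, for which reason only Hba-a2 is printed, whereas the longest run shared by Hbb-bs and Hbb-bt was 14 bases. A match is a description of these letters, and no binding was measured. Some annotated transcripts begin further upstream, so that 161 of the 250 bases of the Hba-a1 window, 3 of Hba-a2, 85 of Hbb-bs, 73 of Hbb-bt, 42 of Alas2 and 60 of Mb are exonic in the GENCODE annotation. In Hba-a1 the matches to CCAAT and TATAA and the CACCC nearest the start, at 88, 27 and 60 bases before it, lie in that annotated exon. Matches in annotated exons also occur in Hbb-bt (TATAA at 28 and a reverse CCAAT at 36 bases) and in Alas2 (CACCC at 40, 35 and 30 bases). The forward CCAAT of Hbb-bt, at 75 bases, lies partly in the annotated exon. For Hbb-bs and Mb the places of the exonic bases relative to the matches are not given here.

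Library totals ranged from 11987167 to 12710393 counts, with scaling factors (TMM) of 0.969 to 1.05. Yap1 was counted 915, 781 and 833 times in control muscles 1 to 3 and 381, 311 and 495 times in Yap-shRNA muscles 1 to 3. Its log2 fold change was −1.10, with every Yap-shRNA muscle below every control muscle. The main test between groups, described below, did not call Yap1. Genes of skeletal muscle fibres (7 of 7 listed in the table) summed to 121000 to 145000 CPM, where CPM is the count scaled to the library total and the TMM factor. Between libraries of the same group the chi-square per degree of freedom was 7.616 to 21.44, so none repeated another. Nothing in the labels says whether blood was flushed from the muscles.

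None of the 6 genes passed the test between groups. In the quasi-likelihood fit of edgeR, adjusted by Benjamini-Hochberg over 13226 genes, each had an adjusted p of 0.9999, so that 0 of 6 were called, and of all genes 0% were called (232 had an unadjusted p under 0.05). With DESeq2 0 of 6 were called as well, beside 5 genes or 0.0378% of the table. Yap1, the target of the hairpin, was among the genes called by DESeq2 but was not called by the quasi-likelihood fit. The values of control and Yap-shRNA muscles overlapped for all 6 genes, while the groups did not overlap for 697 of the 13226 genes (5.27%). Exact permutation tests on log2 CPM (two-sided, n = 3 per group) gave p between 0.7 and 1.0 for the 6 genes, where 0.1 is the smallest that the design allows.

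Hba-a1 was counted 246, 432 and 283 times in control muscles 1 to 3 and 453, 324 and 210 times in Yap-shRNA muscles 1 to 3. Scaled, this was 26.2 ± 8.86 CPM in control and 26.5 ± 10.7 CPM in treated muscles (SD, n = 3 each), with a log2 fold change of 0.02 (SE 0.30, 95% interval −0.66 to 0.70). The highest value of either group was more than 1.5 times the lowest of the same group, and the highest and the lowest library both belonged to the Yap-shRNA muscles. Hba-a2, which encodes the same alpha chain, had 175, 318 and 182 counts in control and 333, 211 and 143 in Yap-shRNA muscles. Its level was 18.4 ± 7.14 CPM against 18.5 ± 8.51 CPM (SD, n = 3 each), a log2 fold change of 0.0096 (SE 0.34, 95% interval −0.75 to 0.77).

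Hbb-bs was the most abundant of the red-cell globins, with 879, 1357 and 1000 counts in control and 1660, 1175 and 725 in Yap-shRNA muscles. Scaled, its mean was 88.0 ± 23.1 CPM in control and 95.8 ± 41.0 CPM in treated muscles (SD, n = 3 each), and it differed by 0.12 on the log2 scale (SE 0.29, 95% interval −0.53 to 0.78). As for the alpha genes, Yap-shRNA muscle 1 was highest and Yap-shRNA muscle 3 lowest, with the 3 control muscles between them. Hbb-bt had 200, 266 and 196 counts in control and 365, 220 and 154 in Yap-shRNA muscles, or 18.0 ± 3.71 CPM and 19.9 ± 9.54 CPM (SD, n = 3 each). Its log2 fold change was 0.15 (SE 0.30, 95% interval −0.52 to 0.82). With the counts of each pair summed, which does away with the uncertain split between near-identical genes, the log2 fold change was 0.016 for the alpha pair and 0.13 for the beta pair.

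Alas2 was counted 42, 55 and 55 times in control and 80, 42 and 35 times in Yap-shRNA muscles, the lowest counts of the 6 genes. For the highest of these, 80, the 95% exact Poisson interval is 63.4 to 99.6 and for the lowest, 35, it is 24.4 to 48.7, which covers counting error only. Scaled values were 4.13 ± 0.744 CPM in control and 4.24 ± 2.15 CPM in treated muscles (SD, n = 3 each), with a log2 fold change of 0.04 (SE 0.33, 95% interval −0.71 to 0.78). Yap-shRNA muscle 1 again stood highest and Yap-shRNA muscle 3 lowest.

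Mb had 44226, 54272 and 47085 counts in control and 52261, 44404 and 46243 in Yap-shRNA muscles and was the 27th most abundant gene of the table by mean CPM. The level was 3948 ± 552.5 CPM in control and 3827 ± 502.2 CPM in treated muscles (SD, n = 3 each), a log2 fold change of −0.04 (SE 0.13, 95% interval −0.34 to 0.26). Control muscle 2 was highest and Yap-shRNA muscle 2 lowest. As fold changes, the interval for Mb ran from 0.787 to 1.19, while those of the red-cell genes were wider, from 0.594 to 1.71 for Hba-a2 and from 0.696 to 1.76 for Hbb-bt. These intervals are the sizes of change that 3 muscles against 3 could not exclude.

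**Figure D1:**
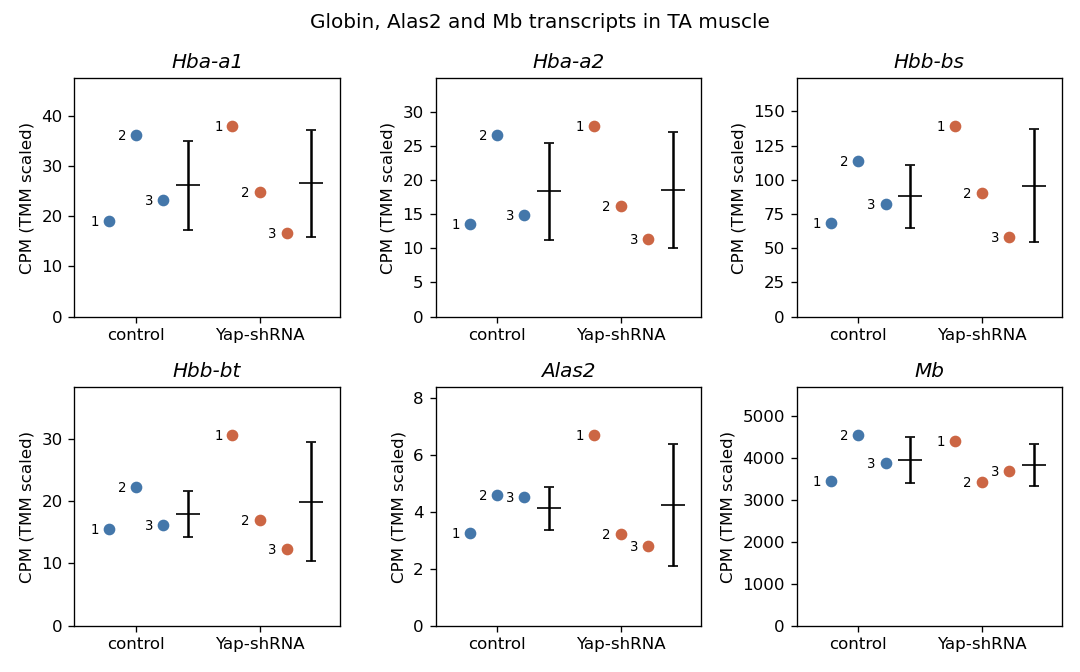
CPM of each gene (vertical axes, linear and from 0, with a scale for each gene) in the 3 control (blue) and 3 Yap-shRNA (orange) muscles, numbered by replicate, with the group mean and SD as horizontal and vertical black lines. The groups overlap for all 6 genes, and Yap-shRNA 1 is the highest and Yap-shRNA 3 the lowest library for the 5 genes other than Mb.

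The 4 red-cell globins varied together between muscles. In CPM each of them ordered the 6 libraries in the same way. The order ran from Yap-shRNA 1 through control 2, Yap-shRNA 2, control 3 and control 1 down to Yap-shRNA 3. For Hbb-bt the places of control 3 (16.1 CPM, 196 counts) and control 1 (15.6 CPM, 200 counts) depended on the scaling. Alas2 kept the same highest and lowest library but placed Yap-shRNA 2 next to last. The highest library exceeded the lowest 2.27-fold for Hba-a1, 2.45-fold for Hba-a2, 2.41-fold for Hbb-bs, 2.49-fold for Hbb-bt and 2.40-fold for Alas2, against 1.33-fold for Mb and a median of 1.43-fold over all genes. On the log2 CPM scale the SD over the 6 libraries was 0.461 to 0.528 for these 5 genes, above that of 88.9 to 92.1% of the 13168 genes with a read in every library. For Mb it was 0.174, close to the median of 0.192.

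Ratios between the globins varied far less than the globins themselves. The SD of the log2 ratio of 2 globin genes over the 6 libraries was between 0.081 (Hba-a1 to Hbb-bs) and 0.16. The lowest of these values joins an alpha and a beta gene, which share no 50-base window. Ratios of Alas2 to a globin had an SD of 0.19 to 0.277, and ratios of Mb to a globin one of 0.351 to 0.395. As Pearson correlations of log2 CPM over the 6 libraries, which share 3 animals, this was 0.947 to 0.991 among the globins, 0.852 to 0.916 between Alas2 and the globins and 0.741 to 0.836 between Mb and the globins. These describe 6 libraries, and no test was made.

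The muscles with the fewest globin reads were those with the most tendon transcripts. Tendon markers (6 of 6 in the table) summed to 679 CPM in control 1 and 556 CPM in Yap-shRNA 3, against 127 to 176 CPM in the other 4 muscles. Among these 4, control 3 had the lowest tendon sum (127 CPM) and also the fewest globin reads (1661). In CPM, control 1 and Yap-shRNA 3 were the lowest libraries of their groups for each red-cell globin. The part of tendon in these levels was not tested. With both of these libraries left out, a choice made after seeing the data, the log2 fold change was 0.08 for Hba-a1, 0.09 for Hba-a2, 0.23 for Hbb-bs, 0.31 for Hbb-bt, 0.12 for Alas2 and −0.11 for Mb, and none was called by edgeR. Single muscles set the sign: without Yap-shRNA 1 the log2 fold changes of the red-cell globins and Alas2 lay between −0.45 and −0.25, and without control 2 between 0.12 and 0.37. Without control 1 they were −0.16 for Hba-a1, −0.17 for Hba-a2, −0.03 for Hbb-bs, 0.05 for Hbb-bt and −0.11 for Alas2, and without Yap-shRNA 3 they lay between 0.26 and 0.40.

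Mb transcripts far outnumbered those of the red-cell globins in every muscle. The 4 globins summed to 1500, 2373 and 1661 reads in control muscles 1 to 3 and to 2811, 1930 and 1232 reads in Yap-shRNA muscles 1 to 3. This was between 0.00969 and 0.0235% of all counts, whereas Mb took 0.353 to 0.44%. For each globin read there were 29.5, 22.9 and 28.3 Mb reads in control (26.9 ± 3.52, SD, n = 3) and 18.6, 23.0 and 37.5 in Yap-shRNA muscles (26.4 ± 9.89, SD, n = 3). The group means of this ratio lay closer together than the muscles within either group, and both the highest and the lowest ratio were found in Yap-shRNA muscles. Expressed the other way, there were 3.76 ± 0.53 globin reads per 100 Mb reads in control and 4.13 ± 1.37 in Yap-shRNA muscles (SD, n = 3 each), a difference of 0.08 in the mean log2 ratio, while the summed globin CPM differed by 0.04 in its mean log2 value. In whole muscle, fewer red cells and less globin RNA per cell cannot be told apart.

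**Figure D2:**
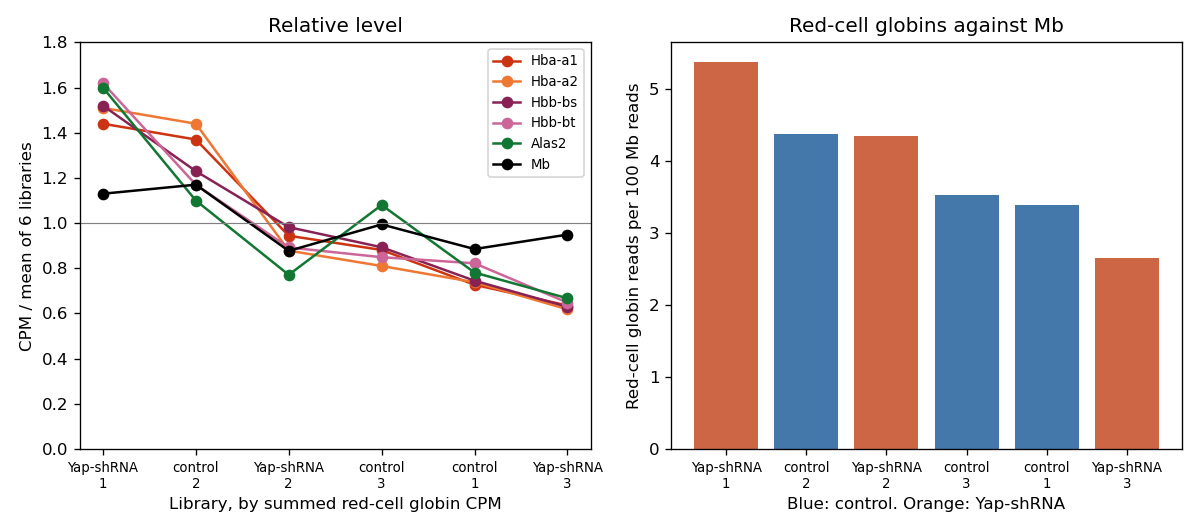
Left, CPM of each gene divided by its mean over the 6 libraries (linear axis), with libraries ordered by summed red-cell globin CPM; right, red-cell globin reads per 100 Mb reads in the same order (bars from 0, blue control, orange Yap-shRNA). The globins and Alas2 fall from 1.44 to 1.62 times their mean in Yap-shRNA 1 to 0.618 to 0.667 times in Yap-shRNA 3, Mb stays between 0.877 and 1.17, and the bars run from 5.38 to 2.66 with the groups interleaved.

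Levels of different genes were compared as CPM per kilobase of exon. On this scale Mb had a mean level of 2606 (range over the 6 libraries 2285 to 3041), followed by Hbb-bs at 119.6 (75.3 to 181.3). Hba-a1 at 32.5 (20.6 to 46.8), Hba-a2 at 27.7 (17.1 to 41.9) and Hbb-bt at 26.9 (17.5 to 43.6) had overlapping ranges, and Alas2 was lowest at 1.74 (1.16 to 2.79). Within libraries Hba-a1 nevertheless stood above Hba-a2 and above Hbb-bt in 6 of 6, while Hba-a2 exceeded Hbb-bt in 2 of 6. The SD of the log2 ratio of Hba-a1 to Hba-a2 was 0.0855, but the split of reads within the alpha pair is uncertain. The order of Mb, Hbb-bs, this group of globins and Alas2 held without overlap of their ranges. Per kilobase, the level of Mb was between 9.37 and 18.9 times that of the 4 globins together. The length used was that of all annotated exons of a gene. For Mb it was 1492 nucleotides against 714 in the principal transcript, and for Hbb-bs 768 against 628. With principal transcripts the level of Mb relative to the globins would be higher. Reads that fit both genes of a pair may be missing from the globin counts, which was not measured here.

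The make-up of the globin reads hardly varied. Alpha genes took 28.1, 31.6 and 28.0% of the globin reads in control muscles 1 to 3 and 28.0, 27.7 and 28.7% in Yap-shRNA muscles 1 to 3. The share in control 2 (95% Wilson interval 29.8 to 33.5%) was the highest, and its interval did not overlap that of Yap-shRNA 1 (26.3 to 29.6%). Beta reads were 2.16 to 2.61 times as many as alpha reads. Reads shared within a pair may be missing to a different extent from the alpha and the beta genes. The size of this ratio and of the shares is therefore uncertain. Hba-a1 took 57.6 to 60.9% of the alpha reads and Hbb-bs 81.5 to 84.2% of the beta reads. The library with the most globin reads and the one with the fewest thus had nearly the same composition, with alpha shares of 28.0 and 28.7%.

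**Figure D3:**
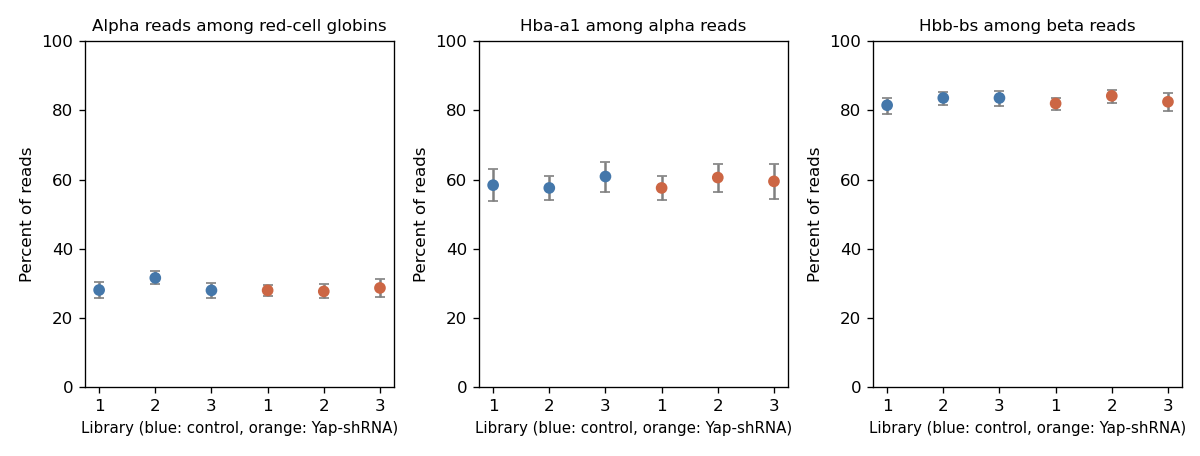
Percent of red-cell globin reads from alpha genes, of alpha reads from Hba-a1 and of beta reads from Hbb-bs (vertical axes from 0 to 100%) in each control (blue) and Yap-shRNA (orange) library, with 95% Wilson intervals as grey bars. Shares stay within 27.7 to 31.6%, 57.6 to 60.9% and 81.5 to 84.2%. Reads shared within a pair may be missing, so the size of these shares is uncertain.

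Alas2 made up a small part of the transcript reads for the first enzyme of heme synthesis in muscle. Its share of the reads of Alas1 and Alas2 together was 1.93, 2.18 and 2.08% in control and 3.42, 1.59 and 1.36% in Yap-shRNA muscles. The share of Yap-shRNA 1, the muscle with the most globin, had a 95% Wilson interval of 2.75 to 4.23%. There were 30.2 to 46.0 globin reads for each Alas2 read, a ratio that varied 1.52-fold between muscles.

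Of the 9 enzymes of heme synthesis, all 9 were in the table, 0 rose and 0 fell by edgeR, and 5 had a positive log2 fold change, with a median of 0.02 against a median over all genes of −0.0028. Alas1, the synthase of tissues other than the red cell, was at 196 CPM on average (166 to 212) and Fech, the ferrochelatase that inserts iron in the last step, at 186 CPM (154 to 201). Urod, the decarboxylase of uroporphyrinogen, stood at 59.7 CPM. Alad, of the second step, averaged 25.7 CPM, Cpox 25.5 CPM, Uros 20.4 CPM and Ppox 17.9 CPM. Without Alas2 the median of the list was −0.014. Alas1 did not follow the globins across muscles (r = 0.132 with the summed globins, n = 6 libraries), whereas Alas2 did (r = 0.888).

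**Figure D4:**
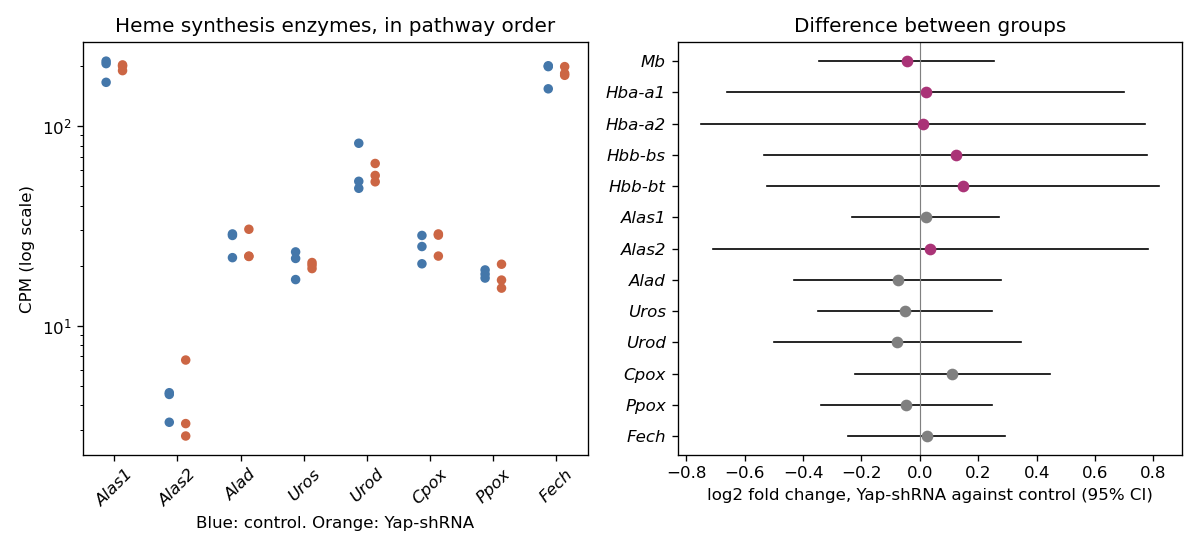
Left, CPM (log axis) of heme synthesis enzymes in pathway order in control (blue) and Yap-shRNA (orange) muscles; right, log2 fold change of Yap-shRNA against control with 95% intervals (black lines) for the globins, Mb, Alas2 (purple) and the other enzymes (grey). All intervals cross 0, and Alas2 lies far below Alas1 (166 to 212 CPM) in each library.

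Genes that carry heme and iron gave 11 of 13 listed genes in the table, with 0 called in either direction and a median log2 fold change of −0.014. Among the most abundant were Tfrc, the transferrin receptor, at 286 CPM, Slc25a39, a carrier of the inner mitochondrial membrane, at 83.2 CPM, and Slc48a1, a heme transporter of endolysosomes, at 75.9 CPM. Genes of heme breakdown and iron storage gave 11 of 11, again 0 called, with a median of −0.06. Fth1, the ferritin heavy chain, led them at 1320 CPM, and the iron regulatory genes Ireb2 (29.4 CPM) and Aco1 (25.7 CPM) and the heme oxygenase Hmox2 (25.0 CPM) followed among the 4 highest. The extremes of that list were chosen after their values were seen. Hmox1, the inducible heme oxygenase, ranged from 8.11 to 39.6 CPM and had a log2 fold change of 0.79 (unadjusted p of edgeR 0.166). Hpx, which encodes the heme-binding plasma protein hemopexin, had 3, 16 and 309 counts in control and 8, 35 and 1 in Yap-shRNA muscles. Control 3 alone put the control mean above that of the Yap-shRNA muscles. Hpx is made by the liver, and liver markers (6 of 6 in the table) had sums of 0.778, 48.1 and 402 CPM in control and of 12.7, 35.3 and 0.399 CPM in Yap-shRNA muscles, with the highest library (control 3) and the lowest (Yap-shRNA 3) the same as for Hpx. The part of liver RNA in Hpx was not tested.

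Of 26 genes of the red cell membrane and of reticulocytes 13 were in the table, 0 rose and 0 fell, and the median log2 fold change was 0.02. The 13 present included genes that muscle and vessels also use, led by the water channel Aqp1 (621 CPM), the ankyrin gene Ank1 (399 CPM), the spectrin gene Sptb (222 CPM) and Bpgm, the bisphosphoglycerate mutase of red cells (111 CPM). Slc4a1, Epb42, Rhag, Rhd, Kel, Ermap, Tspo2, Ahsp, Car1 and Trim58, for example, were not among the genes analysed here, which all averaged at least 10 reads per library. Bpgm correlated with the summed globins at r = 0.366 over the 6 libraries. Of 10 erythroid transcription factor and precursor genes only Ldb1 (32.0 CPM), Zfpm1 (7.21 CPM), Lmo2 (6.89 CPM) and Tal1 (2.77 CPM) were in the table, and none was called (median −0.09). Gata1, Klf1, Nfe2, Hemgn, Epor and Bcl11a were not among the genes analysed here. Of markers of nucleated erythroid precursors 1 of 6 (Tfrc) and of reticulocytes and red cells 2 of 6 (Alas2 and Bpgm) were in the table.

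Embryonic globins (Hba-x, Hbb-bh1, Hbb-bh2 and Hbb-y), the theta globins Hbq1a and Hbq1b and neuroglobin (Ngb) were not among the genes analysed here. Cygb, which encodes cytoglobin, a globin of fibroblasts and other cells, averaged 30.9 CPM with a log2 fold change of 0.02 and did not follow the red-cell globins (r = −0.368, n = 6 libraries). Yap1 itself had an r of −0.188 with the summed globins and of 0.176 with Mb.

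Few markers of neutrophils, lymphocytes and platelets were among the genes analysed here, which all averaged at least 10 reads per library. None of 7 neutrophil and none of 6 lymphocyte markers was in the table, and of 5 platelet markers Pf4 and Itga2b were, with sums of 4.27 to 9.65 CPM in control and 8.98 to 14.7 CPM in Yap-shRNA muscles. Pf4, platelet factor 4, had a log2 fold change of 0.80 (unadjusted p of edgeR 0.0348, adjusted p 0.9999) and was highest in Yap-shRNA 2, not in the library with the most globin. Macrophage markers (6 of 6) summed to 168, 92.7 and 67.1 CPM in control and 117, 151 and 139 CPM in Yap-shRNA muscles, and 6 of 6 had a positive log2 fold change, with a median of 0.41 and 0 called. Endothelial markers (8 of 8) summed to 403 to 479 CPM in control and 424 to 461 CPM in Yap-shRNA muscles. Their highest and lowest libraries, control 1 and control 2, were not those of the globins.

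Among 9279 genes with a mean of at least 5 CPM, the 5 genes whose log2 CPM was most like the summed red-cell globins over the 6 libraries were Gimap6 (r = 0.990), Rpl30 (0.988), Iba57 (0.981), Il15 (0.975) and Coq3 (0.970). Gimap6 ranged only from 20.9 to 24.9 CPM, so that its likeness is one of order and relative spacing and not of the size of the change. Those most like Mb were D8Ertd738e (r = 0.989), Esam (0.988), Ddx24 (0.985), Rpl37 (0.983) and Dnajc19-ps (0.981). With 6 points many genes come this close: 18 genes exceeded 0.95 with the globins and 31 with Mb.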

How the data were processed

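PolyA-selected RNA of 6 TA muscles was sequenced, and the authors deposited raw read counts per gene, without normalisation. Per the labels the build was GRCm38 and reads were converted with bcl2fastq 2.20.0.422. Aligner, counter and strand setting of these libraries are not given in the sources used here. The study's methods for its nuclei name STAR and featureCounts with a minimum mapping quality, which would drop reads shared by near-identical genes. No gene of the table had fewer than 60 reads in all, so low genes were removed before deposit. Groups came from the sample labels, and 0 columns were left unmapped.

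After TMM scaling all 13226 genes were tested in R 4.3.3 by the quasi-likelihood method of edgeR 4.0.16, with group as the only term. Calls had a Benjamini-Hochberg adjusted p under 0.05. Alternatives used DESeq2 1.42.0 and limma 3.58.1 (voom). The code was tested on simulated data. Shares have Wilson intervals, exact permutation tests used scipy 1.17.1, and intervals of counts cover counting error only. P-values of edgeR set the difference between groups against the spread between muscles of a group, estimated with information from all genes. The muscles were treated as independent, although per the labels both groups came from the same 3 animals. Gene models came from GENCODE M21 and upstream sequences from RefSeq.

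Named genes were the 6 genes of the report, Yap1, up to 4 genes of highest mean CPM from each list, and the 5 genes most like the globins and most like Mb. Outside this rule, the further heme enzymes, Hmox1, Hpx, Slc2a1, Pf4 and the less abundant slow fibre genes were named after their values were seen. Some genes of the lists are not reported here by name. The genes and lists were chosen with earlier results of these data known.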

Additional observations from a re-analysis of the deposited data

How the results depend on the processing

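None of the 6 genes passed the threshold in any of 16 alternatives (96 combinations, lowest adjusted p 0.8196); 77 kept their direction and 19 changed sign. By setting, the sign turned with limma-voom for Hba-a1 (−0.0069), Hba-a2 (−0.024) and Alas2 (−0.062), as log2 fold changes. A replicate block, pairing muscles by number, turned it for Hba-a1 (−0.0067), Hba-a2 (−0.021) and Alas2 (−0.033), while Hbb-bs (0.060), Hbb-bt (0.077) and Mb (−0.044) kept it. The block gave 0 calls and left the difference of the summed globins at 0.04 and of their ratio to Mb at 0.08. Deviations of same-numbered muscles correlated at −0.0389, 0.205 and −0.246, and 2 of 6 muscles correlated best with their own number.

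Leaving out each muscle gave ranges of −0.33 to 0.32 for Hba-a1, −0.41 to 0.37 for Hba-a2, −0.25 to 0.38 for Hbb-bs, −0.30 to 0.40 for Hbb-bt, −0.45 to 0.26 for Alas2 and −0.15 to 0.067 for Mb. Mb was positive without control 2 (0.067) and without Yap-shRNA 2 (0.032). The red-cell genes were all negative without Yap-shRNA 1. The summed globins ranged from −0.28 to 0.35 and their log2 ratio to Mb from −0.14 to 0.37, lowest without Yap-shRNA 1 and highest without Yap-shRNA 3. With alpha genes alone the summed difference was −0.013 and with beta genes alone 0.063.

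Over all genes edgeR's quasi-likelihood test called 0, DESeq2 5 (Ccl2, Hspb7, Mir155hg, Rrad and Yap1), the likelihood ratio test 5 (with Actc1 in place of Hspb7), and leaving out both tendon-rich libraries, chosen after seeing the data, 3 (Ankrd1, Mir155hg and Rrad). Leaving out each muscle gave 0 to 1 calls, the 1 being Mir155hg without Yap-shRNA 3. Upper-quartile scaling, scaling without the globins, limma-voom and at least 10 counts in every library (12210 genes) gave 0, and dropping the filter changed nothing because the table was already filtered. The causes were not tested. Alas2 had the lowest depth of the 6 genes, at 35 to 80 counts per muscle.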

Other observations

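Fibre-type genes are of interest beside Mb, which is a gene of oxidative fibres. All 13 listed genes of oxidative and slow fibres were in the table, 0 were called by edgeR and the median log2 fold change was 0.01. The most abundant were Ckmt2, the mitochondrial creatine kinase, at 1780 CPM, the lipoprotein lipase gene Lpl at 378 CPM, the fatty acid receptor gene Cd36 at 341 CPM and the fast oxidative myosin gene Myh2 at 326 CPM. Control muscles 1 to 3 had summed levels of 2540, 3360 and 3320 CPM, against 3240, 3120 and 2730 CPM for the Yap-shRNA muscles. Control 2 was highest, as for Mb, but it was also highest for the summed fast glycolytic genes (130000 CPM) and fibre markers (145000 CPM). The lowest library of the oxidative and slow genes was control 1, whereas that of Mb was Yap-shRNA 2. The log2 fold changes ran from −0.44 for Tnni1, the slow troponin I, to 0.88 for Myl2, the slow myosin light chain (unadjusted p of edgeR 0.0139, adjusted p 0.9999), both named after their values were seen. Of the other slow genes Tnnt1 was at −0.26, Tnnc1 at −0.17, Myl3 at −0.03 and Myh7 at 0.09. All 9 fast glycolytic genes had a negative log2 fold change, with a median of −0.13 and 0 called, led by Myh4 at 33200 CPM, Atp2a1 at 25700 CPM, Tnnt3 at 18000 CPM and Pvalb at 11300 CPM.

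Of 13 hypoxia-responsive genes 12 were in the table, 11 with a positive log2 fold change and 0 called, at a median of 0.11. Egln1 (351 CPM), Epas1 (246 CPM), Vegfa (209 CPM) and Pdk1 (54.5 CPM) were the most abundant. Slc2a1, which encodes a glucose transporter, had the highest log2 fold change of the list, 0.36 (unadjusted p of edgeR 0.0465, adjusted p 0.9999), and was named after its value was seen.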
